A study of Mus musculus with 6 samples.

Results

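The complement genes examined here are 9 mouse genes that encode proteases, central components and inhibitors of the complement system: C1ra, C1s1, C3, C4b, Cfb, Masp1, Serping1, Cd55 and Cd59a. They were chosen by name, with earlier results of these data known. Their rows were taken by gene symbol from a count table of 25189 symbols. Of the 9 genes, 6 had a row. C4b, Cfb and Cd55 had none and were not analysed here.

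The 6 RNA-seq libraries are labelled as kidney at day 2, from male C57BL/6 mice of WT genotype. In the group called I/R + chemerin-9 (3 libraries), the mice had ischaemia and reperfusion of the kidney, a loss and return of blood flow that injures it, and received chemerin-9, a peptide agonist made of the last residues of chemerin. The group called I/R (3 libraries) had ischaemia and reperfusion alone, so the injury is common to both groups. The question is which genes differ between this injury with chemerin-9 and the injury alone. The sources used here give neither the dose and route of the peptide nor the age of the mice, and no uninjured kidney was analysed here. The titles of all I/R + chemerin-9 samples read C9, but their treatment field counts up as C9, C10, C11. The columns of this group carry the letters IC, read as I/R and C9, and that reading could not be checked against the labels.

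Libraries held 11217252 to 14004529 counts in I/R + chemerin-9 and 13069464 to 16938301 counts in I/R. Whether every library stands for a separate mouse is not in the labels, so the p-values cover only library-to-library spread, possibly technical. The labels give each library a batch date of its own, 6 consecutive dates that, like the treatment field, may come from filling down a column. Batch and treatment cannot be told apart. Replicates 1 and 2 of I/R differed from replicate 3 by a chi-square per degree of freedom of 5.61 and 5.14, against 1.80 between themselves and 1.90 to 2.17 within I/R + chemerin-9, so replicate 3 of I/R stood apart. Each tested complement gene was fitted with and without it, and Masp1, C1s1, C1ra (adjusted p = 0.034, edgeR) and C3 (0.044) were called without it too. Marker genes of kidney cells were low and some genes of the fibroblast list abundant, which goes against the labelled tissue. Whether these libraries are whole kidney is therefore in doubt. Aqp1, the water channel of proximal tubule, averaged 17.7 ± 2.05 CPM (counts relative to the scaled library size) in I/R + chemerin-9 and 18.2 ± 0.201 CPM in I/R (SD, n = 3 each). Lrp2, the endocytic receptor of that segment, averaged 3.37 ± 0.747 CPM in I/R + chemerin-9 and 3.19 ± 0.531 CPM in I/R. The fibroblast markers summed to 4622 to 4747 CPM in I/R + chemerin-9 and 5336 to 5447 CPM in I/R. Fn1 alone averaged 2122 CPM in I/R + chemerin-9 and 2322 CPM in I/R. Other genes of that list were low: Dcn had 100 counts over the I/R + chemerin-9 libraries and 90 over the I/R libraries. Postn was under the filter on low counts, and Lum and Thy1 had no row. In bulk RNA, fewer cells of a type and less RNA per cell cannot be told apart.

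Complement is a set of blood and tissue proteins that mark and attack surfaces. In the classical pathway the recognition protein C1q carries the proteases C1r and C1s, and C1s cuts C4 and C2. In the lectin pathway collectins and ficolins carry the MASP proteases, which cut the same substrates. Both routes, and the alternative pathway with factor B, meet at C3, whose fragments tag surfaces and call in leukocytes. Inhibitors act at each step: C1 inhibitor binds C1r, C1s and the MASPs, CD55 breaks up the enzymes that cut C3, and CD59 stops the membrane attack complex. In the kidney, complement proteins come from the liver through the blood and are also made by resident cells, and reperfusion is a known setting of complement activation.

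The starts of 4 of these genes show which sequence letters lie where transcription is annotated to begin. They are shown because a window was available for each and each was tested. C1ra, C1s1 and C3 were higher in I/R + chemerin-9 and Cd59a was not called. No window was found for Masp1, Serping1, C4b or Cfb. The windows are from RefSeq (GRCm38.p6), run from 250 bases before to 50 bases after an annotated start, and are written 5′ to 3′ on the strand of the gene. C1ra is chr6:124512371-124512670, plus strand. C1s1 is chr6:124542310-124542609, minus strand. C3 is chr17:57228087-57228386, minus strand. Cd59a is chr2:104095551-104095850, plus strand. Capitals mark matches to the motifs named in the next paragraph.
C1ra: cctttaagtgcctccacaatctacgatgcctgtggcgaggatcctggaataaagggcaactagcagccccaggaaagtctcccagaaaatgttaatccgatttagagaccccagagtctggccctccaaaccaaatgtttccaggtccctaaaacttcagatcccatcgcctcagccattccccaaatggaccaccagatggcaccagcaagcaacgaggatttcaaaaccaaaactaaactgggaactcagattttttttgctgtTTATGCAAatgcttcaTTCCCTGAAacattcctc
C1s1: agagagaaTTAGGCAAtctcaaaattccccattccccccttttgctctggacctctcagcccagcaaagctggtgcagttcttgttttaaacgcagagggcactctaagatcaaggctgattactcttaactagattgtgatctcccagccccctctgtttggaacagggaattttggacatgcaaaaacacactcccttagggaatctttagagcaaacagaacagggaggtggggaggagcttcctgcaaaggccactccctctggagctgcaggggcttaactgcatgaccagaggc
C3: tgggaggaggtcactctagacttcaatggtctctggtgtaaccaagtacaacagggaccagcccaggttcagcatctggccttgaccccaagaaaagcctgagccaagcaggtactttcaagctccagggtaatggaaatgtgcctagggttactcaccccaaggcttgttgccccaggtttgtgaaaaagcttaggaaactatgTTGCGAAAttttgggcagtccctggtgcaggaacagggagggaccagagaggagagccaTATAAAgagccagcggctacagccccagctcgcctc
Cd59a: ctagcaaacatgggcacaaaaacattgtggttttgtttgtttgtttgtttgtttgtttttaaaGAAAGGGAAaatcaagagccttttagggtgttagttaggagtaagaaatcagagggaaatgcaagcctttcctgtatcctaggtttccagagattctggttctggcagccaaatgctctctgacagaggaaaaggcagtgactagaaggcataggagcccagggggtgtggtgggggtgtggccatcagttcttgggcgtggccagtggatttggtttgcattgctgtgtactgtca

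5 motifs, the TATA box core and motifs of factors known to act on inflammatory genes, were searched on both strands. The C1ra window held a GAS site, TTCNNNGAA, the letters bound by STAT dimers, from base 33 after the annotated start, and a core of the C/EBP site, TTGCNNAA, from base 17 on the minus strand. GENCODE M21 starts C1ra further upstream, at 124512405, inside the window shown. The C1s1 window held a C/EBP core on the minus strand, and the C3 window held a C/EBP core and a TATA box core, TATAAA. The Cd59a window held a core of the interferon-stimulated response element, GAAANNGAA. The NF-kappaB consensus was in none of these windows, and no marked motifs overlapped. Among 32851 promoter windows of the same length, GAS sites were found in 8.3%, the interferon element core in 8.56%, the C/EBP core in 10.8%, the NF-kappaB consensus in 8.46% and the TATA core in 13.6%. A match describes the letters and says nothing of binding in these samples. RefSeq windows were also found for Cd55 and for another start of C1s1, and neither held any of the 5 motifs.

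The protease genes Masp1, C1s1 and C1ra, together with C3, were higher in I/R + chemerin-9. The calls of C1ra and C3 depended on single libraries and on the test. Of the 5 members that passed the filter on low counts, 4 were called higher (Masp1, C1s1, C1ra and C3) and none lower, with Cd59a not called. Called means an adjusted p under 0.05 in edgeR's quasi-likelihood test with Benjamini-Hochberg adjustment over 14184 genes. That rule called 51.7% of all tested genes, with 25.6% higher and 26.1% lower in I/R + chemerin-9. Groups did not overlap for 3 of the 5 tested members, all higher in I/R + chemerin-9, against 58.5% of all tested genes in either direction and 29.3% higher. A call or a lack of overlap was therefore common in these data and is not particular to complement. The median log2 fold change of the 5 tested members was 0.48, against -0.0037 over all tested genes. The members were chosen with earlier results of these data known, so their median does not describe complement genes in general. For the 14 other tested complement genes the median was 0.04. Two-sided p-values are given throughout, and log2 fold changes are I/R + chemerin-9 over I/R.

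Masp1 had the largest change relative to its error among the members. It encodes MASP-1, a lectin pathway protease that activates itself and MASP-2, and by other splicing MASP-3, which activates factor D, and the inhibitor MAp44. Masp1 (ENSMUSG00000022887) lies on chr16:23449417-23520815, minus strand, GRCm38. It held 78.6, 77.1 and 77.7 CPM in the I/R + chemerin-9 libraries, against 43.7, 46.1 and 41.8 CPM in the I/R libraries. All 3 I/R + chemerin-9 libraries were above all 3 I/R libraries. The log2 fold change was 0.83 (standard error 0.05, adjusted p = 1.1e-08, edgeR), which is 1.78-fold. The SD among the I/R + chemerin-9 libraries, 0.767 CPM, was below the 2.45 CPM that counting error alone gives at this depth. In I/R the SD was 2.13 CPM and counting error gives 1.77 CPM. Counts per gene cannot separate the MASP-1, MASP-3 and MAp44 transcripts. Rtp4, an interferon-induced gene, lies inside Masp1 on the other strand with no shared exon bases, and it fell by 1.80 on the log2 scale (adjusted p = 8.2e-11, edgeR).

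**Figure D1:**
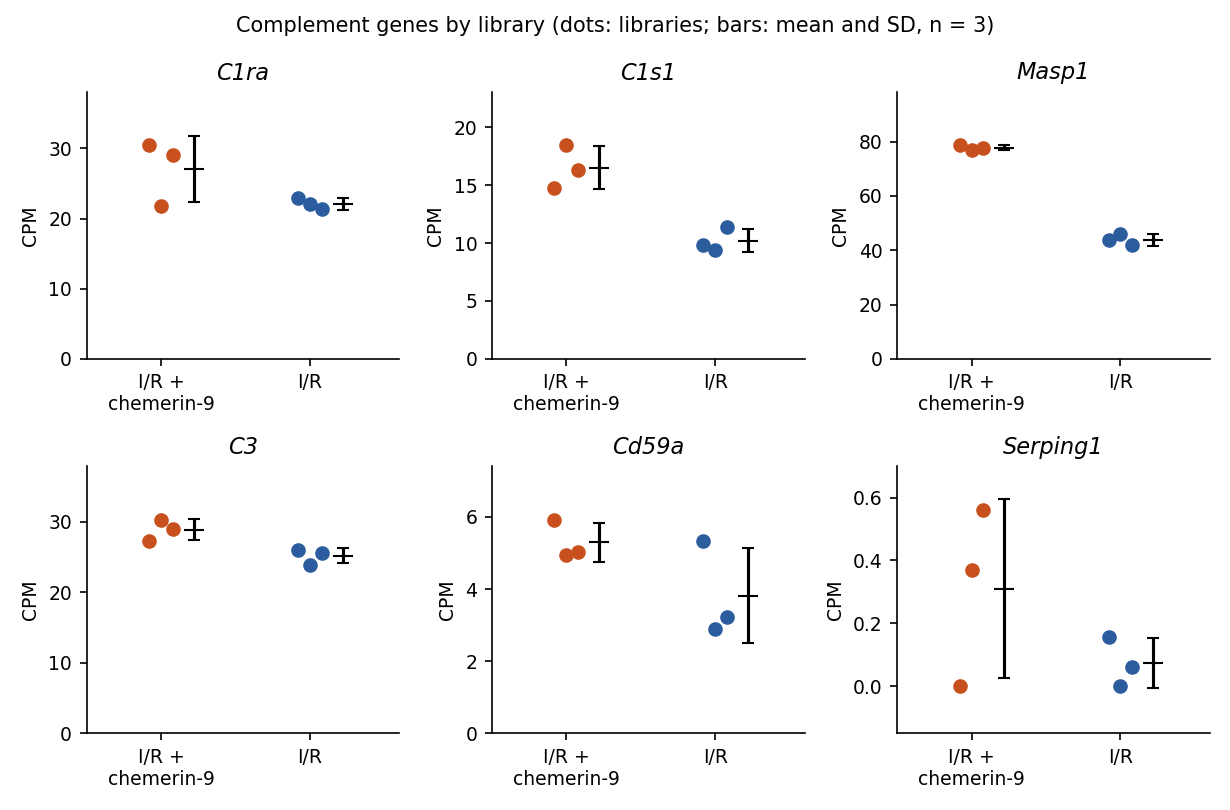
CPM of the 6 complement genes with a row, in each library of I/R + chemerin-9 and of I/R; dots are libraries, and bars are the mean and SD of 3 libraries. Masp1, C1s1 and C3 do not overlap between the groups, C1ra and Cd59a overlap through 1 library, and Serping1 is near 0.

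C1s1 and C1ra, the genes of the classical pathway proteases, sit next to each other in a cluster on chromosome 6. C1s1 encodes C1s, which cuts C4 and C2, and C1ra encodes C1r, which activates C1s. C1s1 (ENSMUSG00000038521, chr6:124530345-124542359, minus strand) held 14.7, 18.4 and 16.3 CPM in I/R + chemerin-9, against 9.86, 9.44 and 11.3 CPM in I/R. The lowest I/R + chemerin-9 library was above the highest I/R library. The log2 fold change was 0.69 (standard error 0.12, adjusted p = 0.0002, edgeR), or 1.61-fold.

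C1ra (ENSMUSG00000055172, chr6:124512405-124523443, plus strand) changed less and less evenly. It held 30.4, 21.7 and 29.1 CPM in I/R + chemerin-9, against 22.9, 22.1 and 21.3 CPM in I/R. Replicate 2 of I/R + chemerin-9 lay within the range of the I/R libraries, so the groups overlapped. The log2 fold change was 0.29 (standard error 0.11, adjusted p = 0.036, edgeR). The spread among the I/R + chemerin-9 libraries, an SD of 4.68 CPM, was above the 1.44 CPM of counting error. The spread among the I/R libraries was an SD of 0.820 CPM, and counting error there gives 1.25 CPM. The call was lost without replicate 1 of I/R + chemerin-9 (adjusted p = 0.18), without replicate 3 of I/R + chemerin-9 (0.17) and without replicate 2 of I/R (0.078), with DESeq2 (0.068) and with limma-voom (0.053). Over 14 alternatives the log2 fold change of C1ra ran between 0.20 and 0.43 and its adjusted p between 0.0015 and 0.18, the lowest p being without replicate 2 of I/R + chemerin-9.

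C1s1 and C1ra did not keep a fixed proportion to each other. Per 100 counts of C1ra there were 48.4, 84.7 and 56.0 counts of C1s1 in the I/R + chemerin-9 libraries, against 43.0, 42.8 and 53.3 in the I/R libraries. The ranges overlapped, and replicate 2 of I/R + chemerin-9, the library with the least C1ra and the most C1s1 of its group, stood highest.

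Near-identical copies limit what a count at this cluster means. In mouse, C1ra has the copy C1rb, with 97.9% identity over 2432 aligned bases, and C1s1 has the copy C1s2, with 98.4% identity over 426 bases. C1rb held 0.833 ± 0.265 CPM in I/R + chemerin-9 and 1.05 ± 0.565 CPM in I/R, and was not called (log2 fold change -0.40, 95% interval -1.32 to 0.52). Replicate 3 of I/R held 28 of the 47 counts of C1rb in I/R, and without it the log2 fold change was 0.17. C1s2 held 2.41 ± 0.751 CPM in I/R + chemerin-9 and 1.66 ± 0.264 CPM in I/R, and was not called either (0.53, -0.11 to 1.17). The sources used here do not say how reads shared by the copies were counted. An antisense gene, Gm16567, covers 18.4% of the exon bases of C1s1, and the strand setting of the counting is not given either.

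C3, the component on which all pathways meet, differed by a small amount. C3 (ENSMUSG00000024164, chr17:57203970-57228136, minus strand) held 27.3, 30.3 and 29.0 CPM in I/R + chemerin-9, against 25.9, 23.9 and 25.6 CPM in I/R. The groups did not overlap, and the nearest libraries were 27.3 CPM in I/R + chemerin-9 and 25.9 CPM in I/R. The log2 fold change was 0.20 (standard error 0.08, adjusted p = 0.039, edgeR), or 1.15-fold. The SD among libraries was 1.51 CPM in I/R + chemerin-9, where counting error gives 1.49 CPM, and 1.07 CPM in I/R, where it gives 1.34 CPM.

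The call of C3 depended on single libraries and on the test. Without replicate 2 of I/R + chemerin-9 its adjusted p was 0.15, without replicate 3 of that group 0.098, without replicate 1 of I/R 0.056 and without replicate 2 of I/R 0.13. It was 0.15 with DESeq2, 0.081 with no filter on low counts and 0.056 with the replicate block. Over the 14 alternatives the adjusted p of C3 ran between 0.015 and 0.15, and its log2 fold change stayed between 0.16 and 0.23. Masp1 and C1s1 were called in all 14 alternatives, with log2 fold changes of 0.76 to 0.86 for Masp1 and 0.60 to 0.78 for C1s1. In the authors' deposited table, C3 had a log2 fold change of 0.20 with an FDR of 0.156 and C1ra 0.29 with an FDR of 0.0718. The same authors' deposited table gave C1s1 0.68 with an FDR of 0.00011 and Masp1 0.82 with an FDR of 1.64e-26.

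**Figure D2:**
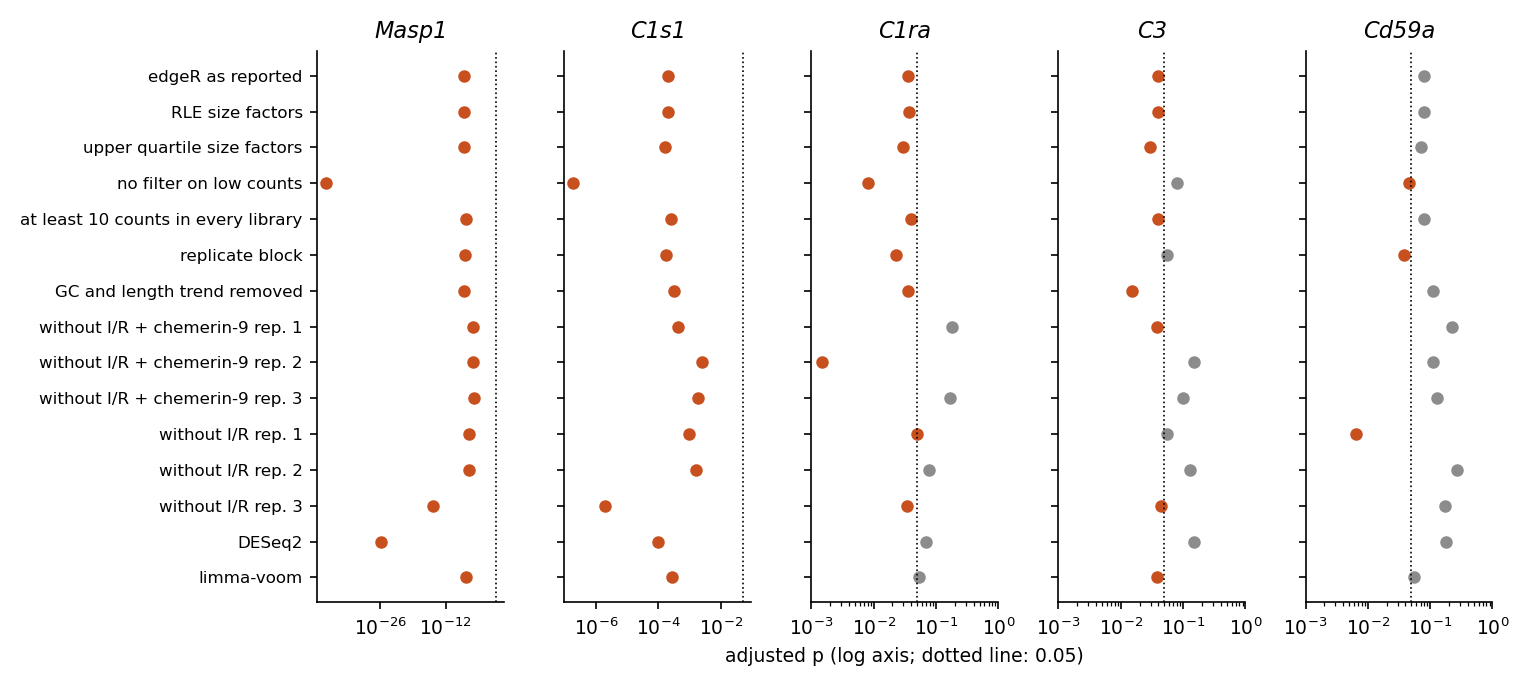
Adjusted p (log axis, with a range of its own for Masp1 and for C1s1) of the 5 tested members under the reported edgeR fit and 14 alternatives; the dotted line is 0.05, and orange points are under it. Masp1 and C1s1 stay left of the line throughout, C1ra crosses it in 5 alternatives, C3 in 7, and Cd59a, not called as reported, passes in 3.

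Of the regulators among the 9 genes, Cd59a and Serping1 had a row, and neither was called. Cd59a encodes the mouse CD59 protein that most tissues carry, an inhibitor of the membrane attack complex held to the membrane by a glycosylphosphatidylinositol (GPI) anchor. Cd59a (ENSMUSG00000032679, chr2:104095801-104115354, plus strand) held 5.93, 4.94 and 5.04 CPM in I/R + chemerin-9, against 5.32, 2.90 and 3.22 CPM in I/R. Replicate 1 of I/R lay inside the range of the I/R + chemerin-9 libraries, and the other 2 I/R libraries lay below it. The log2 fold change was 0.48, with a 95% interval of 0.01 to 0.96 (adjusted p = 0.081, edgeR). Without replicate 1 of I/R the log2 fold change was 0.78 and the adjusted p 0.0065. With no filter on low counts the adjusted p was 0.046 and with the replicate block 0.038, and over the 14 alternatives it ran between 0.0065 and 0.27. Counts behind these values were 68, 67 and 72 in I/R + chemerin-9 and 68, 39 and 53 in I/R. Counting error alone gives an SD of 0.639 CPM in I/R + chemerin-9, where 0.545 CPM was measured, and 0.521 CPM in I/R, where 1.32 CPM was measured. The related gene Cd59b, which shares 91.4% of 255 aligned bases, was under the filter, with 17 counts in all in I/R + chemerin-9 and 29 in I/R.

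Serping1, the gene of C1 inhibitor, was barely detected. Serping1 (ENSMUSG00000023224, chr2:84765387-84775444, minus strand) had 0, 5 and 8 counts in I/R + chemerin-9, against 2, 0 and 1 counts in I/R. Each group had a library with no count, and the groups overlapped. The sums, 13 counts in I/R + chemerin-9 and 3 in I/R, correspond to 0.330 CPM in I/R + chemerin-9 (95% exact Poisson interval 0.176 to 0.565) and 0.0702 CPM in I/R (0.0145 to 0.205). Their ratio is 4.70, with a 95% counting interval of 1.29 to 25.7. These intervals cover counting error only and not the spread between libraries. Serping1 did not pass the filter and was not tested. In the authors' deposited table its FDR was 1.

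Levels between genes can be compared only per length, and on that scale C1ra stood highest of the 6 genes. In CPM per kilobase of all annotated exons, C1ra held 9.09 ± 1.57 in I/R + chemerin-9 and 7.41 ± 0.275 in I/R (SD, n = 3 each). Masp1 followed in I/R + chemerin-9 at 7.91 ± 0.0780, against 4.46 ± 0.217 in I/R. C3 held 5.61 ± 0.294 per kilobase in I/R + chemerin-9 and 4.89 ± 0.208 in I/R, and C1s1 held 5.27 ± 0.593 in I/R + chemerin-9 and 3.27 ± 0.321 in I/R. Cd59a was at 2.93 ± 0.301 per kilobase in I/R + chemerin-9 and 2.11 ± 0.728 in I/R, and Serping1 at 0.133 ± 0.122 in I/R + chemerin-9 and 0.0311 ± 0.0340 in I/R.

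The order of the genes by level per kilobase differed between the groups in the place of Masp1. In I/R + chemerin-9 the order was C1ra, Masp1, C3, C1s1, Cd59a and Serping1, where C1ra overlapped Masp1 and C3 overlapped C1s1 across libraries. In I/R the order was C1ra, C3, Masp1, C1s1, Cd59a and Serping1, where C3 overlapped Masp1 narrowly. The exon length of Masp1, 9833 bases, is the union over all its transcripts, and a shorter transcript would raise its level per kilobase. That length cancels in the comparison between groups.

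**Figure D3:**
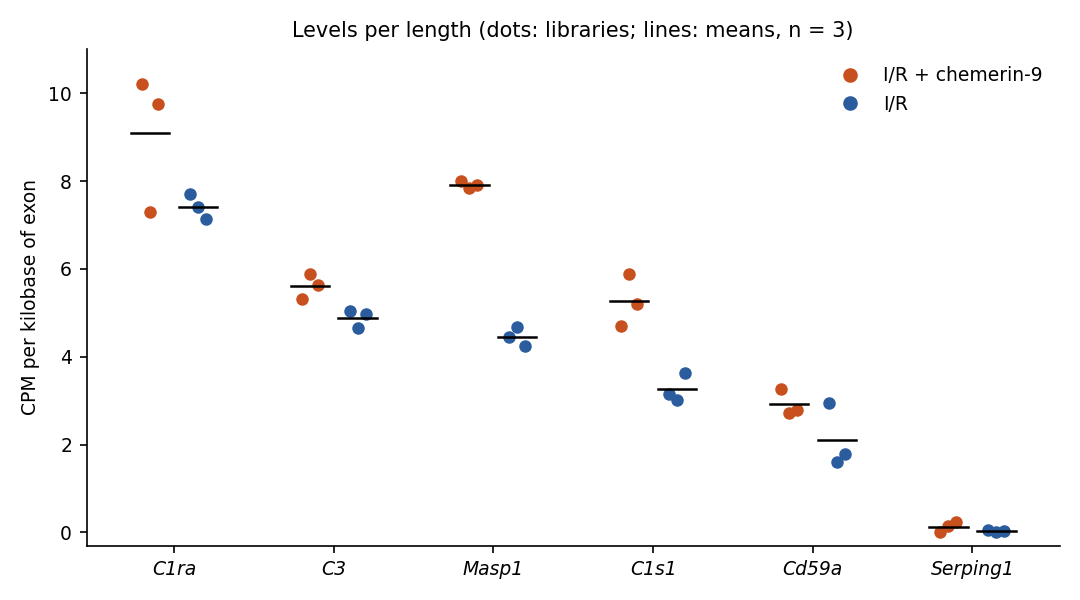
CPM per kilobase of annotated exon of the 6 complement genes with a row, in I/R + chemerin-9 (left dots of each gene) and I/R (right dots); lines are means of 3 libraries. Masp1 stands above C3 in I/R + chemerin-9, at 7.91 against 5.61, and beside it in I/R, at 4.46 against 4.89.

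Outside the 9 genes, most other complement genes were low or were not called. Of 55 further complement gene symbols listed, 32 had no row and were not analysed here, 9 were under the filter and 14 were tested. Some symbols without a row are alternative names of the same gene, such as C5 and Hc, so the 55 are not all separate genes. None of the 9 under the filter, among them C2, C9, Cfd, Cfi, Cd59b, Fcna, Colec11 and Cd93, had more than 13 counts in a library. Of the 14 tested, 3 were called higher in I/R + chemerin-9 and 1 lower, or 28.6%, against the 51.7% of all genes. Their median log2 fold change was 0.04.

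Masp2, the gene of the lectin pathway protease that cuts C4 and C2, held 2.53, 1.62 and 2.17 CPM in I/R + chemerin-9, against 0.783, 0.817 and 0.243 CPM in I/R. The groups did not overlap, and the log2 fold change was 1.81 (standard error 0.40, adjusted p = 0.0015, edgeR). Tardbp, on the opposite strand, covers 54.9% of the exon bases of Masp2 and held 431 ± 5.81 CPM in I/R + chemerin-9 and 512 ± 16.4 CPM in I/R. Reads of Tardbp and Masp2 cannot be told apart there without strand.

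C1rl, a protease gene of the C1r family beside C1ra, held 3.75, 4.42 and 3.15 CPM in I/R + chemerin-9, against 2.11, 2.30 and 2.97 CPM in I/R. Its log2 fold change was 0.60 (adjusted p = 0.039, edgeR). The call of C1rl was lost without replicate 1 of I/R + chemerin-9 (0.081), replicate 2 of that group (0.17), replicate 1 of I/R (0.12) or replicate 2 of I/R (0.11), and with DESeq2 (0.13), over a range of 0.017 to 0.17.

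Among membrane and fluid regulators, Cd46 was called higher in I/R + chemerin-9. Cd46 encodes membrane cofactor protein, which helps factor I cut C3b and which in mouse is found mainly in testis. It held 10.8, 7.30 and 9.79 CPM in I/R + chemerin-9, against 4.31, 4.09 and 4.49 CPM in I/R, with no overlap (log2 fold change 1.10, adjusted p = 6.5e-05, edgeR). The antisense gene A330023F24Rik covers 14.2% of the exon bases of Cd46. Cr1l encodes Crry, the membrane regulator that does much of this work on mouse tissues, and it held 68.4 ± 1.69 CPM in I/R + chemerin-9 and 70.3 ± 1.56 CPM in I/R. The difference of Cr1l was not called, with a log2 fold change of -0.04 and a 95% interval of -0.14 to 0.06. With the trend on GC content and length removed it was -0.19 and called (adjusted p = 0.0023), and over the alternatives its adjusted p ran up to 0.76. Its near copy Crry-ps, 98.2% identical over 449 bases, held 0.235 ± 0.103 CPM in I/R + chemerin-9 and 0.591 ± 0.316 CPM in I/R. Clusterin, Clu, which binds the terminal complex in fluid, was not called (log2 fold change 0.16).

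C1qbp, a mitochondrial protein that also binds C1q, was the only tested complement gene called lower. It held 135, 127 and 129 CPM in I/R + chemerin-9, against 154, 161 and 159 CPM in I/R, and it fell by 0.28 on the log2 scale (adjusted p = 3.8e-05, edgeR). C4a held 2.65 ± 0.142 CPM in I/R + chemerin-9 and 2.96 ± 1.09 CPM in I/R and was not called. It is a near copy of C4b, with 98.3% identity over 526 aligned bases, and C4b itself has no value here. C8g of the terminal pathway (log2 fold change -0.12), properdin, Cfp (0.04), the scavenger collectin Colec12 (0.04) and Itgb2 (-0.43), the beta chain of the C3 fragment receptors of leukocytes, were not called. Itgb2 passed in 1 of its 14 alternatives, with an adjusted p of 0.039 and a range up to 0.30.

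**Figure D4:**
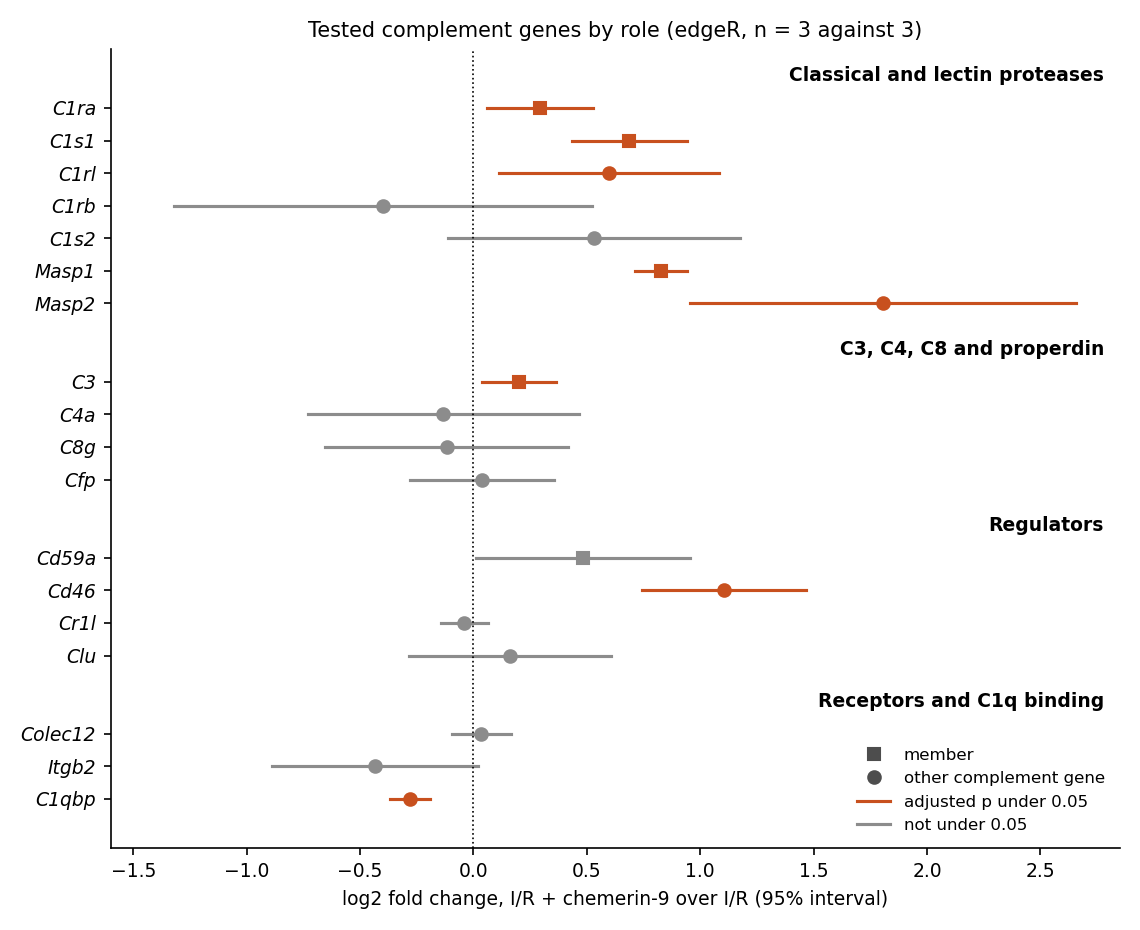
Log2 fold change (I/R + chemerin-9 over I/R) with its 95% interval for the tested complement genes described in the text, grouped by role; squares are the 5 members, circles the other complement genes, and orange marks an adjusted p under 0.05. The called genes at or above 0.20 are Masp1, C1s1, C1ra, C3, Masp2, C1rl and Cd46, and C1qbp is the called gene below 0.

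Genes known to act on complement transcription were called at a share near that of all genes. Of 23 tested genes of the interferon, interleukin and NF-kappaB routes, 12 were called, or 52.2%, against 51.7% of all genes. Il1r1, the interleukin receptor for IL-1, was higher, at 29.3 ± 1.08 CPM in I/R + chemerin-9 and 14.9 ± 1.27 CPM in I/R (log2 fold change 0.98, adjusted p = 3.5e-07, edgeR). Irf8 (0.97) and Nfkb2 (0.25) were also called higher. Stat3 (-0.04), Irf1 (-0.07) and Cebpb (-0.29) were not called.

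Secreted acute phase genes, which in liver often move with C3, did not all go one way. Of 6 tested, Orm2 (log2 fold change 1.95), Ptx3 (0.86) and Lbp (0.43) were called higher, and Saa3 was called lower. The value of Orm2 rests on few counts, 57 over the I/R + chemerin-9 libraries and 16 over the I/R libraries. Its 95% interval was 0.92 to 2.99. The called genes are 66.7% of the tested genes of this short list, against 51.7% of all genes. Ptx3 encodes a pentraxin that binds C1q and held 68.5 ± 4.92 CPM in I/R + chemerin-9 and 37.8 ± 1.68 CPM in I/R. Saa3 held 2.35 ± 0.552 CPM in I/R + chemerin-9 and 24.4 ± 2.89 CPM in I/R (-3.37, adjusted p = 4.2e-10, edgeR).

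Of 25 tested genes that build or attach the GPI anchor by which CD55 and CD59 are held, 8 were called higher and 5 lower, or 52%, a share near the 51.7% of all genes. Pigw (log2 fold change 0.96), Pigh (0.83) and Pigo (0.54) were among those higher, and the genes called lower were Dpm1 (-0.46), Dpm2 (-0.40), Dpm3 (-0.66), Pgap2 (-0.56) and Pigx (-0.36).

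Markers of cells known to make complement are given for the same libraries, and their part in the results was not tested. The 4 of 14 macrophage markers with a row summed to 11.2 to 14.1 CPM in I/R + chemerin-9 and 13.7 to 15.6 CPM in I/R, led by Cd14 at 6.63 ± 1.04 CPM in I/R + chemerin-9 and 7.61 ± 0.809 CPM in I/R. Of these 4, Aif1 was called lower, with 27 counts over the I/R + chemerin-9 libraries and 80 over the I/R libraries. The 2 of 10 hepatocyte markers with a row, Trf and Apoa2, summed to under 0.49 CPM in every library, and Apoa2 had no count in I/R + chemerin-9. The 2 of 8 neutrophil markers with a row summed to 0 to 0.350 CPM in I/R + chemerin-9 and 0 to 0.121 CPM in I/R, and Ly6g had no count in I/R + chemerin-9.

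The 5 of 10 endothelial markers with a row summed to 10.8 to 12.6 CPM in I/R + chemerin-9 and 6.32 to 7.22 CPM in I/R, most of it Flt1, which was called higher (log2 fold change 0.93). The 3 of 6 podocyte markers with a row summed to 26.4 to 28.5 CPM in I/R + chemerin-9 and 17.1 to 18.2 CPM in I/R, led by Podxl (0.49) and Synpo (0.95), both called higher. The 7 of 17 tubule markers with a row summed to 22.6 to 27.8 CPM in I/R + chemerin-9 and 25.2 to 26.0 CPM in I/R, and none was called. Of 9 tested fibroblast markers, 2 were called higher (Col3a1 and Pdgfrb) and 3 lower (Col1a2, Fn1 and Vim, with log2 fold changes of -0.13 for Fn1 and -0.68 for Vim). Flt1, Podxl and Synpo were thus higher in the same libraries as Masp1 and C1s1, and their part in those results was not tested. Egfl7, the other tested endothelial marker, was not called (log2 fold change 0.41).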

How the data were processed

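RNA-seq was made of 6 libraries, 3 of I/R + chemerin-9 and 3 of I/R. Per the labels' protocols, a reagent from Qiagen served for extraction and a stranded mRNA kit from Vazyme for the libraries. Per the submitters' processing notes, HISAT2, HTSeq, DESeq 1.18.1 and the build mm10 were used; the sources used here give neither the annotation release nor the strand setting. The deposited table holds raw counts per gene symbol, which are whole numbers with different totals, and the authors' own log2 fold changes, fold ratios, p-values and FDR. It has 25216 rows, of which 27 repeated a symbol and were removed. Groups were taken from the titles.

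The test was edgeR's quasi-likelihood test (edgeR 4.0.16, R 4.3.3) with group as the only term. Scaling used TMM, low genes were removed by filterByExpr, and the threshold was 0.05 after Benjamini-Hochberg adjustment. The procedure was tested on simulated data. Far fewer genes were changed there than were called here, so that test does not cover data with so many calls. The median tested gene held 295 counts in the library of lowest depth, and the biological coefficient of variation was 5.18%. CPM are counts relative to the TMM-adjusted library size, and intervals are at 95%. Alternatives used limma 3.58.1, DESeq2 1.42.0, other size factors and filters, a replicate block, a GC and length correction, each library left out in turn and a threshold of 0.01.

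Near-identical copies were sought with BLAST 2.17.0 in the transcripts of GENCODE M21 (95% identity or more, covering 50% or more of the shorter sequence and 200 aligned bases; Cd59b, below that identity, is given as a relative). Coordinates are of GRCm38, since 97.5% of matched rows share the GENCODE start. Named are all 9 members, tested genes of the complement list, copies of members and overlapping genes. Of the other lists, up to 4 genes with the smallest p are named, or, for marker lists, the 2 most abundant. Stat3, Irf1, Cebpb, Aif1, Col3a1, Pdgfrb, Col1a2, Dcn, Postn, Lum, Thy1, Dpm1, Dpm3, Pgap2 and Pigx were added after their values were seen. Values of some listed genes are not reported here. The members and lists were chosen with earlier results of these data known.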

Additional observations from a re-analysis of the deposited data

How the results depend on the processing

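The number of complement members called was 4 as reported, and 2 with DESeq2, 2 at a threshold of 0.01 and between 2 and 4 when each library was left out in turn. Under the other alternatives it was 3 or 4. Over all genes between 5567 and 7747 were called, against 7336 as reported, and of the other complement genes between 3 and 5, against 4. With the replicate block, 7300 genes, 4 members and 4 other complement genes were called. Same-numbered libraries did not deviate together, with correlations of 0.10, -0.05 and 0.04, so the numbers were not taken as pairs. No direction of a tested member was reversed. C1rb, C4a, C8g, Cfp and Colec12, none of them called, changed sign under at least 1 alternative. Depth limits Serping1 and the genes under the filter. For Cd59a the spread among the I/R libraries, an SD of 1.32 CPM, exceeded the 0.521 CPM of counting error.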
